A study of Eucalyptus nitens with 12 samples.

Results

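Whether the low KPY trees of Eucalyptus nitens differed from the high KPY trees in the same way at both trial sites was examined here as the trial by KPY interaction, over all 12 libraries. Genes entered the fit when their E. grandis identifier had exactly 1 transcript in the Meunna table and exactly 1 in the Florentine table, which held for 12224 of the 18778 identifiers in either table. Another 3960 identifiers were in both tables but had more than 1 transcript in at least 1 trial. The 4 groups were Meunna_High_KPY, Meunna_Low_KPY, Florentine_High_KPY and Florentine_Low_KPY, each with 3 libraries, and every library was made from a bulk of RNA from several trees of that class. The labels give xylem as the tissue and 20 years as the age of all trees, which grew untreated in the field, and RNA came from cambial scrapings. The trees were extremes of the 2 trials rather than a controlled cross, and KPY class went with growth in these trees. The trials lie at different sites in Tasmania and were scraped in different months of different years, the Florentine bulks held more trees, and transcripts were predicted in each trial separately, so that all of these cannot be told apart from the trial.

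Kraft pulp yield (KPY) is the share of dry wood recovered as pulp after kraft cooking, and rises with cellulose content and falls with lignin content. Wood is made by the vascular cambium, whose inner daughter cells expand, lay down a secondary wall of cellulose, xylan and lignin, and die, and the genes of that wall are among the most abundant in cambial scrapings. In a model with trial, KPY and their interaction, a gene with the same log2 difference between the classes at both sites has an interaction of 0. An interaction can come from a difference in strength, where both trials move the same way by unequal amounts, or in kind, where a gene moves in 1 trial alone or in opposite directions.

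The interaction was computed as the Meunna difference (low minus high KPY, log2 fold change) minus the Florentine difference, with edgeR's quasi-likelihood F test in 1 fit and Benjamini-Hochberg adjustment to a false discovery rate (FDR) with a threshold of 0.05. Total counts per library were 49489614 to 89987549 for Meunna and 44538273 to 53775708 for Florentine, of which the fitted genes held 64.7% to 68.0%. Of the fitted genes 2661 had an annotation, taken from the closest Arabidopsis protein in the parts of the study's supplementary tables used here. The labelled tissue was checked with 27 fitted genes annotated as cellulose synthase, FASCICLIN-like, COBRA-like or laccase, used as markers of wood-forming xylem. The match by words also took in cellulose synthase 1 and cellulose synthase-like genes, which are not particular to xylem. Laccase 14 (Eucgr.B01307) went the other way, with differences of 3.65 in Meunna and 2.40 in Florentine. The summed level of the 27 genes was 7557 to 10033 normalized CPM (CPM, counts scaled to a common library total after TMM scaling) in the Meunna high KPY libraries and 1425 to 2540 in the low ones. It was 14886 to 17495 and 2783 to 6645 in the Florentine high and low ones. Genes annotated to phloem (3 genes, 1.66 to 13.1 normalized CPM over all libraries) and to chlorophyll-bearing cells (6 genes, 90.2 to 291) were measured at lower sums, and both sums were lower in every low KPY library than in any high KPY library of the same trial. The markers were picked by annotation, and annotations were given for genes called on these same libraries. Markers that differ with KPY were thus favoured. In bulk RNA fewer cells of a type and less RNA per cell cannot be told apart, and the part of these markers in the results was not tested.

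The KPY difference had the same sign in both trials for most genes, though 4802 of 12224 were called in neither trial. In Meunna 5954 genes (48.7%) passed the threshold, 3003 lower and 2951 higher in low KPY, and in Florentine 6146 genes (50.3%), 2690 lower and 3456 higher. Both trials called 4670 genes in the same direction, 2311 lower and 2359 higher, and only 8 in opposite directions. The mean difference of the 2 trials passed for 8024 genes (65.6%), and 99.6% of these had the same sign in both trials. Opposite differences cancel in that mean, so the choice itself favours equal signs. Of all genes fitted 87.1% had the same sign. By the libraries themselves, the KPY classes did not overlap for 57.4% of genes in Meunna and 66% in Florentine. For 5750 genes (47%) both trials were without overlap in the same direction, while 33 genes (0.27%) were without overlap in both trials and moved in opposite directions.

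**Figure D1:**
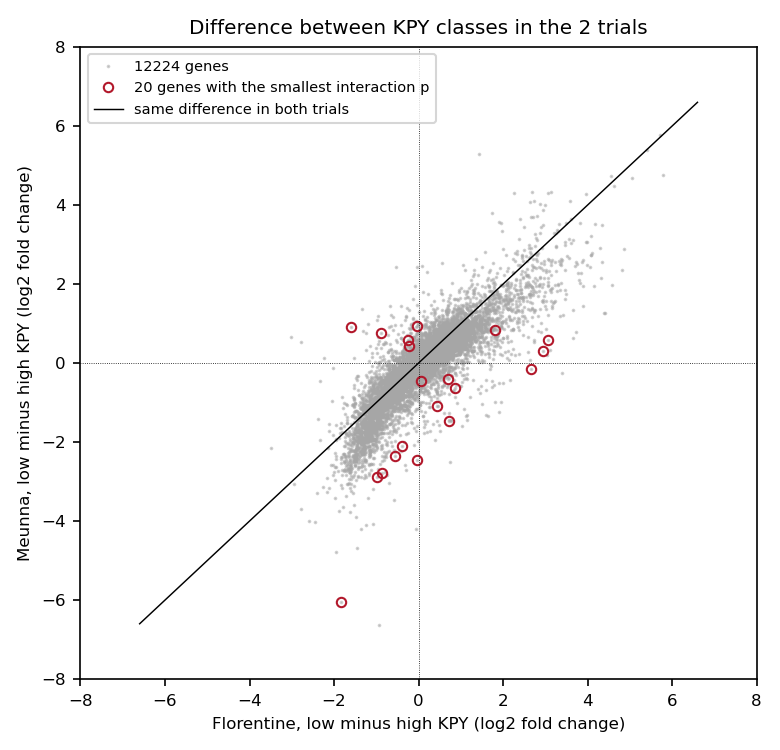
Low minus high KPY difference (log2 fold change) of each of 12224 genes in Florentine (horizontal axis) and Meunna (vertical axis); grey points are genes, open circles the 20 genes with the smallest interaction p, and the solid line marks an equal difference in both trials. Most genes lie at the lower left and upper right, with equal signs, and 11 of the 20 circled genes have opposite signs in the 2 trials.

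No gene passed the threshold in the interaction by edgeR's quasi-likelihood test (0 of 12224, 0%), and the smallest FDR was 0.114. At an unadjusted p under 0.05 there were 790 genes (6.46%), 571 (4.67%) below 0 and 219 (1.79%) above 0. A value below 0 means that the low KPY level was relatively lower in Meunna, either through a larger fall there or through a larger rise in Florentine. limma-voom also called 0 genes, with 686 at an unadjusted p under 0.05. edgeR's likelihood ratio test called 30 genes (0.245%; 23 below 0 and 7 above 0) and the DESeq2 Wald test 65 genes (0.532%; 34 below 0 and 31 above 0), and all 30 were among the 65. The number of calls therefore depended on the test, and the split on the scaling: of the genes at an unadjusted p under 0.05, 72.3% were below 0 with TMM, 52.7% with RLE factors, 57.2% with upper-quartile factors and 89.7% with library size alone.

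The absence of calls had a measurable bound. The standard error of the interaction had a median of 0.25 on the log2 scale, with quartiles of 0.17 and 0.40. The 95% interval of the interaction lay inside a 2-fold difference in either direction for 7798 genes (63.8%) and inside 1.5-fold for 4145 (33.9%). For the remaining genes a 2-fold difference between the trials was not bounded with 3 bulks per group. The median interaction of all genes was -0.08, with quartiles of -0.29 and 0.09.

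The strength of the shared difference was described over the 8024 genes whose mean difference passed, a choice that treats the trials alike. Of the 3661 genes lower in low KPY, 2561 (70.0%) had the larger difference in Meunna, with medians of -0.82 in Meunna and -0.70 in Florentine. Of the 4363 genes higher in low KPY, 2825 (64.7%) had the larger difference in Florentine, with medians of 0.54 in Meunna and 0.64 in Florentine. The slope of the Meunna on the Florentine differences (major axis through the origin) was 1.40 for the lower genes and 0.81 for the higher genes. In the genes over 2-fold, 85.8% of 1266 lower genes and 25.4% of 1038 higher genes had the larger difference in Meunna. Genes are not replicates, so the error was taken over libraries by a jackknife within the groups, which gave standard errors of 0.42 and 0.19 for the slopes and of 23.3 and 17.5 percentage points for the shares. Both slopes were thus within 1 standard error of equal strength.

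Single libraries moved these values. The slope of the lower genes ranged from 1.15 without Florentine low KPY replicate 1 to 1.74 without Florentine low KPY replicate 2, and that of the higher genes from 0.67 without Florentine high KPY replicate 2 to 0.91 without Florentine low KPY replicate 2. All stayed on their side of 1. Their shares ranged from 53.4% to 82.9% and from 50.5% to 75.5%. The 27 genes used as xylem markers summed to 6645, 2783 and 5774 normalized CPM in Florentine low KPY replicates 1, 2 and 3. The library that lowered the Meunna-to-Florentine ratio of the falls thus had the lowest marker sum of its group. The part of the markers in the slopes was not tested. With the Meunna differences moved by the median interaction, the shares became 57.1% and 52.6% and the slopes 1.33 and 0.87.

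**Figure D2:**
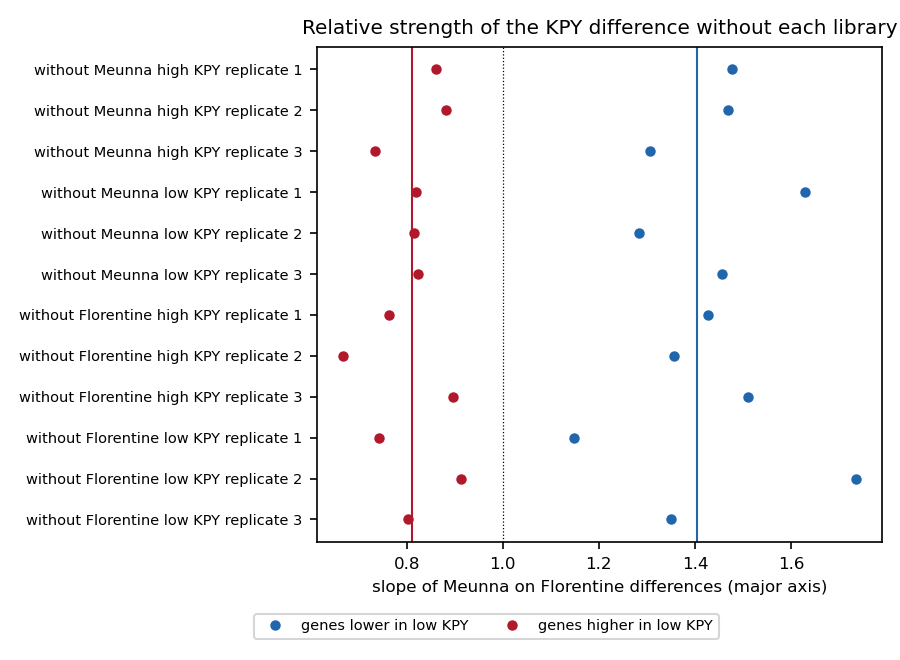
Slope of the Meunna on the Florentine differences (horizontal axis) for genes lower (blue) and higher (red) in low KPY, recomputed without each library named on the vertical axis; solid lines are the slopes with all 12 libraries (1.40 and 0.81) and the dotted line marks equal strength. The slopes of the lower genes run from 1.15 to 1.74 and those of the higher genes from 0.67 to 0.91.

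A common slope left the number of genes at an unadjusted p under 0.05 near that without one, and separate slopes lowered it. When the Florentine differences were multiplied by 1 common slope of 1.04, 0 genes passed edgeR's quasi-likelihood test and 788 had an unadjusted p under 0.05, against 790 without a slope. With separate slopes for lower and higher genes, 0 passed and 663 (5.42%) were at that level. Of the 8024 genes called in the mean difference, those at that level numbered 537 without a slope and 429 with separate slopes. The slopes were estimated from the same libraries, so these counts are a description.

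Genes called in 1 trial only mostly had the same sign in the other, as did most of all genes. In Meunna alone 1276 genes were called, 687 lower and 589 higher, and 92.0% of them had the same sign in Florentine. In Florentine alone 1468 genes were called, 376 lower and 1092 higher, and 92.7% had the same sign in Meunna. The share with the same sign over all genes fitted was 87.1%. A difference was taken as absent only where its 95% interval lay within 1.5-fold. That held in Florentine for 526 of the 1276 and in Meunna for 571 of the 1468. These were small differences in the trial that called them, with median sizes of 0.36 and 0.38 on the log2 scale, themselves within 1.5-fold. An unadjusted interaction p under 0.05 (edgeR quasi-likelihood test) was reached by 100 of the 526 and 106 of the 571. For most of them the trials were thus not shown to differ. In the trial that called them, 9 exceeded 2-fold, 4 in Meunna and 5 in Florentine.

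The 5 genes over 2-fold in Florentine with no difference beyond 1.5-fold in Meunna were all higher in low KPY. Rotamase cyclophilin 2 (Eucgr.B02135), of a family that isomerises prolines in proteins, stood at 21.2, 20.4 and 21.6 normalized CPM in the Meunna high KPY libraries and at 20.0, 20.0 and 21.3 in the low ones. In Florentine it stood at 11.2, 8.01 and 7.68 in high KPY and at 16.0, 23.8 and 16.0 in low KPY. The 6 Meunna libraries were thus level while the Florentine classes did not overlap. Its difference was -0.04 in Meunna (95% interval -0.44 to 0.36) and 1.05 in Florentine (0.65 to 1.45). A SEC-C motif and OTU-like cysteine protease gene (Eucgr.G02418), named for enzymes that remove ubiquitin, differed by 0.07 in Meunna and 1.40 in Florentine, and a chalcone and stilbene synthase family gene (Eucgr.I01579), of the entry step to flavonoids, by 0.03 and 1.02. The others were a duplicated homeodomain-like gene (Eucgr.C00721; 0.08 and 1.06) and the unannotated Eucgr.I01035 (0.03 and 1.15). Of the 4 genes with the reverse pattern, none annotated, Eucgr.K00153 fell in Meunna from 73.5, 50.9 and 48.5 normalized CPM to 34.7, 22.5 and 21.6, and was at 59.3, 50.5 and 57.7 in high and 59.3, 54.6 and 55.5 in low KPY in Florentine. Eucgr.K01223 also fell in Meunna (-1.03, against -0.16), and Eucgr.C00819 and Eucgr.J00649 rose there (1.02 and 1.03, against 0.01 and 0.26). All 9 were selected by the size of these contrasts, so their interactions (-1.33 to 1.01) are given as a description.

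Since no gene passed, the genes with the smallest interaction p are given as not past the threshold by edgeR's quasi-likelihood test. All 20 were called by DESeq2 and 17 by edgeR's likelihood ratio test. By their calls within trials, 7 were called in Meunna only, 4 in Florentine only, 5 in both with opposite directions, 3 in both with the larger difference in Meunna and 1 in both with the larger in Florentine. Opposite signs were seen for 11, opposite directions without overlap in either trial for 7, and an annotation for 11. Over all genes 33 (0.27%) had opposite directions without overlap, and a choice by the interaction favours such genes. None changed sign in any other setting in which it was fitted, single libraries left out included. The 20 were chosen for their p in these same libraries, so neither these signs nor the calls by the other tests are separate support.

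**Figure D3:**
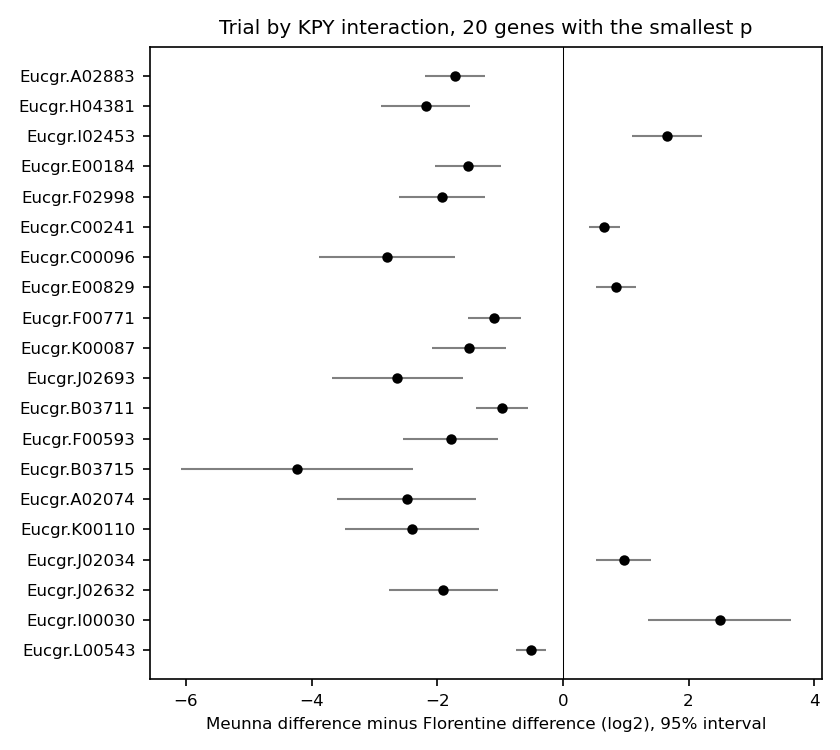
Trial by KPY interaction (Meunna difference minus Florentine difference, log2) of the 20 genes with the smallest p, in order of p from the top; points are estimates and lines 95% intervals from edgeR's quasi-likelihood fit. The interaction is below 0 for 15 genes and above 0 for 5, and the widest interval is that of Eucgr.B03715 (-6.08 to -2.38).

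The first group of these genes fell in Meunna and fell less, or not past the threshold, in Florentine. Eucgr.A02883, of the plant invertase and pectin methylesterase inhibitor superfamily whose members block enzymes of sucrose cleavage or of pectin modification in the wall, had the smallest p. In Meunna it stood at 11.4, 10.5 and 10.4 normalized CPM in high KPY and at 2.90, 2.51 and 2.12 in low KPY. In Florentine it stood at 9.49, 8.18 and 10.2 in high KPY and at 6.47, 7.52 and 7.37 in low KPY. The high KPY levels of the trials were near each other, and the low KPY level was lower in every Meunna library than in any Florentine one. The differences were -2.09 and -0.38, and the interaction -1.71 (SE 0.22; edgeR quasi-likelihood FDR = 0.114; DESeq2 FDR = 4.78e-11).

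Of the others, 4 were lower in low KPY in both trials without overlap. Over all genes 47% were without overlap in both trials in the same direction. UDP-glucosyl transferase 88A1 (Eucgr.F02998), of a family that attaches glucose to small molecules, went from 9.44, 10.0 and 9.42 normalized CPM in the Meunna high KPY libraries to 1.47, 1.47 and 1.26 in the low ones. In Florentine the levels were 11.4, 9.95 and 13.5 in high and 6.93, 4.24 and 8.04 in low KPY. Its interaction was -1.92 (SE 0.31) and passed the quasi-likelihood threshold only without Florentine low KPY replicate 2. The gibberellin-regulated family, which encodes small cysteine-rich peptides, had 2 genes in this group. Eucgr.B03715 went from 5.08, 7.59 and 5.76 to 0.130, 0.0961 and 0.0350 normalized CPM in Meunna, and in Florentine from 8.18, 11.7 and 9.33 to 5.58, 1.33 and 1.35. The Meunna low KPY libraries held 10, 7 and 2 of its reads, and its interaction of -4.23 had a standard error of 0.84. Eucgr.F00593 went from 4.84, 5.13 and 5.55 to 1.38, 0.632 and 1.03 in Meunna, and in Florentine from 6.29, 6.52 and 7.37 to 4.04, 4.97 and 4.69. An alpha/beta-hydrolase (Eucgr.J02632) differed by -2.88 and -0.98, but its 2 predicted transcripts differ in extent.

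Fe superoxide dismutase 1 (Eucgr.K00110), a plastid enzyme that removes superoxide, fell in Meunna and was not called in Florentine. Its level went from 142, 118 and 99.3 normalized CPM in high KPY to 18.4, 12.3 and 35.5 in low KPY, while the Florentine libraries stood at 20.3, 10.8 and 14.0 in high and 14.3, 13.3 and 16.3 in low KPY. The Florentine classes overlapped and lay below every Meunna high KPY library. The differences were -2.44 and -0.04, and the interaction -2.40 (SE 0.48). A putative fumarylacetoacetase (Eucgr.L00543), the last enzyme of tyrosine breakdown, differed by -0.45 in Meunna and 0.06 in Florentine, and the unannotated Eucgr.J02034 rose in Meunna alone (0.93, against -0.04).

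Rises in Florentine alone were seen for 3 genes of this set. NAC domain containing protein 46 (Eucgr.A02074), of a plant transcription factor family, stood in Florentine at 0.671, 0.385 and 0.438 normalized CPM in high KPY and at 3.29, 4.49 and 4.81 in low KPY. In Meunna it stood at 5.44, 3.74 and 2.12 in high and at 4.45, 6.98 and 5.62 in low KPY. The Florentine high KPY libraries were thus below all 9 others, and the Meunna classes overlapped. The differences were 0.59 and 3.07, and the interaction -2.48 (SE 0.50). Eucgr.J02693 had the same form, at 5.65, 5.51 and 3.79 normalized CPM in Florentine high KPY against 14.5 to 43.9 in the other 9 libraries, with differences of 0.32 and 2.95. A hAT dimerisation domain gene (Eucgr.C00096), a domain of transposases, rose in Florentine by 2.66 but at 0.180 to 4.51 normalized CPM, against 154 to 213 in all Meunna libraries. Hexokinase-like 1 (Eucgr.B03711) rose without overlap in both trials, by 0.84 in Meunna and 1.81 in Florentine on the log2 scale. Its high KPY levels were 12.8 to 14.3 normalized CPM in Meunna and 2.21 to 2.55 in Florentine. Such a lack of overlap in both trials in the same direction held for 47% of all genes.

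**Figure D4:**
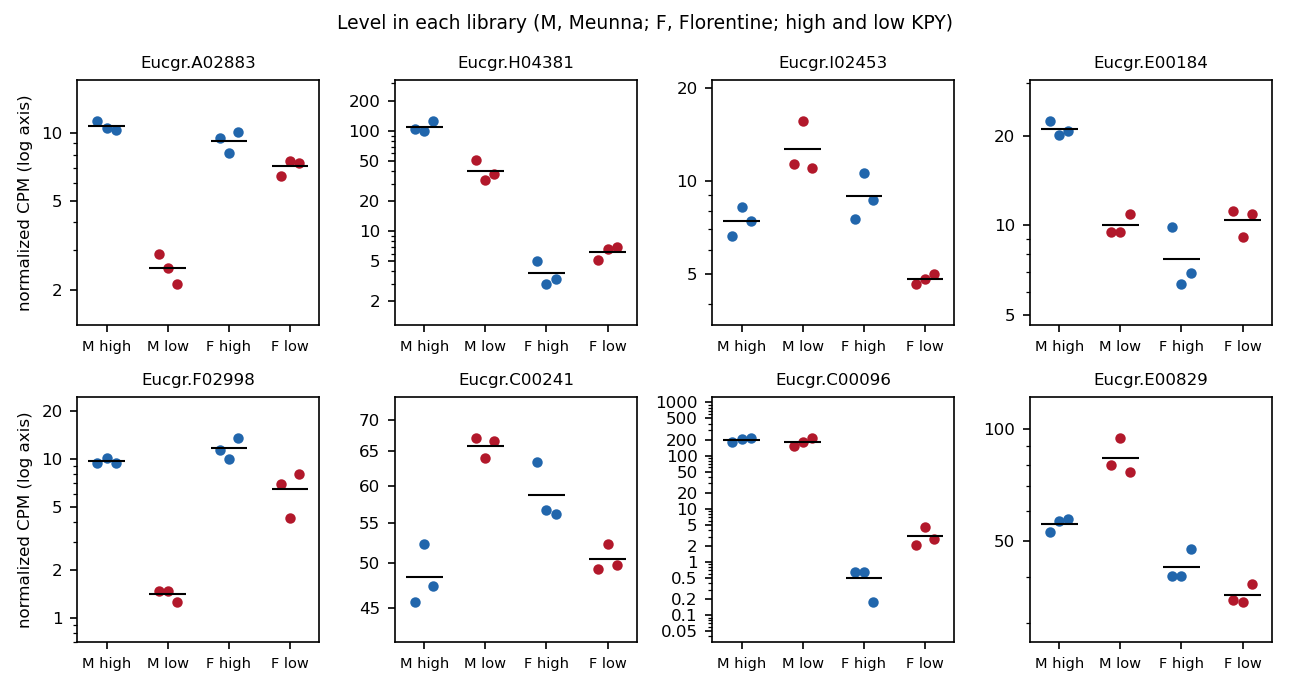
Normalized CPM (log axis) in each library of the 8 genes with the smallest interaction p, by trial and KPY class; points are libraries (blue high KPY, red low KPY) and bars group means of 3. Eucgr.H04381, Eucgr.I02453, Eucgr.E00184, Eucgr.C00241, Eucgr.C00096 and Eucgr.E00829 have differences of opposite sign in the 2 trials, and Eucgr.C00096 is at 154 to 213 in Meunna and at 0.180 to 4.51 in Florentine.

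Opposite directions marked the remaining genes. NIMA-related kinase 2 (Eucgr.H04381), of a kinase family that acts on microtubules and cell expansion in Arabidopsis, stood in Meunna at 105, 101 and 127 normalized CPM in high KPY and at 51.4, 32.5 and 37.0 in low KPY. In Florentine it stood at 5.11, 2.96 and 3.32 in high KPY and at 5.12, 6.68 and 6.96 in low KPY. The classes did not overlap in either trial, though Florentine high and low KPY replicate 1 were almost level, and the mean level was 15.05-fold higher in Meunna. Its differences were -1.46 (FDR = 0.00115) and 0.72 (FDR = 0.0258) by edgeR's quasi-likelihood test, and the interaction -2.18 (SE 0.32).

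The other opposite genes carried no annotation. Eucgr.I02453 rose in Meunna from 6.65, 8.25 and 7.42 to 11.3, 15.6 and 11.0 normalized CPM and fell in Florentine from 7.51, 10.6 and 8.66 to 4.63, 4.81 and 4.99. Eucgr.C00241 rose in Meunna from 45.7, 52.3 and 47.4 to 67.0, 63.9 and 66.6 and fell in Florentine from 63.4, 56.6 and 56.2 to 49.3, 52.4 and 49.8, a small but tight interaction of 0.66 (SE 0.11). The mean level over both classes differed between the trials by 1.46-fold for Eucgr.I02453 and 1.05-fold for Eucgr.C00241. Eucgr.K00087 fell in Meunna (-0.63) and rose in Florentine (0.86), from 17.1 to 17.3 normalized CPM in all 3 high KPY libraries there to 26.0, 31.5 and 35.9. Eucgr.F00771 also fell in Meunna (-0.40) and rose in Florentine (0.69), at a mean level 6.67-fold higher in Meunna. For 3 genes only 1 of the 2 differences passed the threshold by edgeR's quasi-likelihood test: Eucgr.E00184 (-1.08 and 0.43), Eucgr.E00829 (0.59 and -0.25) and Eucgr.I00030 (0.90 and -1.59). The 3 other genes called in both trials in opposite directions, Eucgr.B00604, Eucgr.I01373 and Eucgr.J02841, had interactions of -1.15, -1.51 and 2.07, and were chosen for naming by those calls.

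A difference in level between the trials went with the smallest p more often than in the whole table. The mean level differed by more than 4-fold between the trials for 4 of the 20 genes (20%) and for 181 of all 12224 (1.48%). Because transcripts were predicted in each trial separately, an identifier can stand for transcripts of different extent, and the part of this in the interactions was not tested. The genes of these 4 were Eucgr.H04381, Eucgr.C00096, Eucgr.F00771 and Eucgr.K00110.

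The gene lists named for wood formation had medians below 0 in both trials, further below 0 in Meunna. In the list named secondary wall polysaccharides, with 55 genes, 48 fell and 2 rose in Meunna and 43 fell and 3 rose in Florentine. Its members were matched by annotation words. They include cellulose synthase 1, cellulose synthase-like and xyloglucan endotransglucosylase genes, which are not particular to secondary walls. Of all genes 24.6% fell and 24.1% rose in Meunna, and 22% and 28.3% in Florentine. The lists were drawn from the 2661 annotated genes, of which 1576 fell and 494 rose in Meunna and 1407 and 655 in Florentine. Among the 55, 42 were in the study's Meunna calls used for annotation, which held genes that fell there. These counts of calls thus take in that selection. Their median difference was -1.89 in Meunna and -1.34 in Florentine, and their median interaction -0.52 against -0.08 over all genes. The jackknife standard error of that median over libraries was 0.41, and leaving out single libraries moved it from -0.77 to -0.30. None of the 55 passed in the interaction by edgeR's quasi-likelihood test, and 3 had an unadjusted p under 0.05. The members with the smallest p were xyloglucan:xyloglucosyl transferase 33 (Eucgr.B03348; -3.41 and -1.19), which joins wall xyloglucans, a DUF579 gene (Eucgr.G01567; -2.17 and -1.13), a family known in Arabidopsis for xylan, and TRICHOME BIREFRINGENCE-LIKE 23 (Eucgr.E00070; -0.88 and -1.52), of a family that acetylates wall polysaccharides.

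Lignin genes also fell in both trials. All but 2 of 16 fell in Meunna and 14 fell in Florentine, with medians of -1.50 and -0.92, and 15 of the 16 interactions were below 0, with a median of -0.59 (jackknife SE 0.27). Over all genes 7625 of 12224 were below 0, and over the annotated genes 2061 of 2661. Cinnamate-4-hydroxylase (Eucgr.J01844), the second step of the phenylpropanoid pathway, differed by -1.51 in Meunna and -0.96 in Florentine, an interaction of -0.55 (95% interval -1.06 to -0.05). The shikimate/quinate hydroxycinnamoyl transferase (Eucgr.J03126), a step towards guaiacyl and syringyl lignin, went from 460, 422 and 391 normalized CPM to 140, 69.2 and 116 in Meunna, and in Florentine from 570, 498 and 575 to 304, 186 and 268. Laccase 17 (Eucgr.B02438), which polymerises lignin in Arabidopsis stems, differed by -3.64 and -1.79. The Meunna low KPY libraries held 56, 8 and 21 of its reads, and its predicted transcripts differ in extent between the trials. The classes of all 3 genes did not overlap in either trial, and none passed in the interaction (edgeR quasi-likelihood FDR = 0.716 to 0.765). Of 42 genes of the cytoskeleton list, 40 fell in Meunna and 41 in Florentine. Their medians were -1.53 and -1.26, with a median interaction of -0.25 (jackknife SE 0.34). Of the lignin list 11 genes, and of the cytoskeleton list 28, were in the study's Meunna calls used for annotation, so their counts take in the same selection. Tubulin beta chain 3 (Eucgr.D01847), a subunit of the microtubules that guide cellulose deposition, differed by -2.53 and -1.74, but its predicted transcripts differ in extent.

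Sucrose synthase 1 (Eucgr.F01010), which splits sucrose into fructose and the UDP-glucose used for cellulose, was the list gene after Eucgr.A02074 with the smallest p. Its level went from 19.2, 12.6 and 14.9 normalized CPM to 3.80, 3.32 and 2.91 in Meunna. In Florentine it stood at 2.63, 2.50 and 1.91 in high KPY and at 1.48, 1.12 and 2.65 in low KPY, where the classes overlapped. The interaction was -1.80 (SE 0.42; edgeR quasi-likelihood FDR = 0.516; DESeq2 FDR = 0.0283), at a mean level 4.62-fold higher in Meunna. It was 1 of 2 list genes called by DESeq2, the other being the NAC gene Eucgr.A02074. Among the 11 genes of sucrose and starch use, the medians were -1.31 in Meunna and -0.42 in Florentine, and 10 interactions were below 0. Glycogenin-like starch initiation proteins 2 (Eucgr.F04263; -1.35 and 1.65) and 3 (Eucgr.F00232; -2.10 and -1.28) were in this list by name, though in Arabidopsis the family includes xylan glucuronosyltransferases.

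Heat shock and chaperone genes had positive medians in both trials. Of 21 genes, 5 rose and 6 fell in Meunna, and 12 rose and 6 fell in Florentine, with medians of 0.20 and 0.79. Over all genes 24.1% rose and 24.6% fell in Meunna, and 28.3% and 22% in Florentine. Of the 21, 12 were in the study's Florentine calls used for annotation, so the counts take in that selection. The median interaction of the list was -0.36 (jackknife SE 0.19). Of its genes 5 had an unadjusted p under 0.05 below 0 and 1 above 0, and none passed in the interaction. An Hsp 70 family gene (Eucgr.C00679) stood in Florentine at 2.76, 1.32 and 2.91 normalized CPM in high KPY and at 11.0, 5.07 and 5.06 in low KPY, and in Meunna at 3.67, 7.19 and 5.92 and at 3.10, 1.11 and 6.32, where the classes overlapped. Heat shock cognate protein 70-1 (Eucgr.J00023), a constitutive chaperone, fell in both trials (-0.23 and -0.56). Heat shock transcription factor A9 (Eucgr.C03447), known from seeds in Arabidopsis, fell in Meunna (-1.48) and differed by -0.18 in Florentine.

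Defence proteins had the list median interaction furthest from 0, at -0.85 over 20 genes (jackknife SE 0.29). Of these, 5 rose and 10 fell in Meunna, and 6 rose and 11 fell in Florentine, against the same shares of all genes (24.1% higher and 24.6% lower in Meunna, 28.3% and 22% in Florentine). Of the 20, 10 were in the study's Meunna calls used for annotation, which held genes that fell there. In the Florentine calls used were 11. The counts thus take in that selection. Among the 2661 annotated genes 1576 fell in Meunna and 1407 in Florentine. Polygalacturonase inhibiting protein 2 (Eucgr.A02434), an inhibitor of fungal pectin-degrading enzymes, rose from 4.88, 3.24 and 5.83 to 26.6, 16.5 and 39.0 normalized CPM in Meunna, and in Florentine from 2.09, 1.61 and 1.13 to 54.0, 25.4 and 18.8. Both rises were without overlap, by 2.56 and 4.34 on the log2 scale, and the interaction was -1.78 (SE 0.61). Of all genes 47% were without overlap in both trials in the same direction. A dirigent-like gene (Eucgr.G00279), of proteins that steer the coupling of lignin and lignan precursors, fell by 3.73 in Meunna and by 1.89 in Florentine on the log2 scale. MLP-like protein 31 (Eucgr.B02925) went the other way, with differences of 0.82 in Meunna and -1.32 in Florentine and an interaction of 2.13 (SE 0.64).

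Most transcription factors of the lists had an interaction below 0, as did 2061 of the 2661 annotated genes. Of 33 WRKY, NAC and ethylene response factors, 31 interactions were below 0 and the median was -0.43 (jackknife SE 0.16), and of 29 MYB and homeodomain genes 24 were below 0 with a median of -0.44 (SE 0.17). NAC 007 (Eucgr.D02027), a regulator of vessel formation in Arabidopsis, fell in Meunna (-1.73) and differed by -0.06 in Florentine, where the classes overlapped. Myb domain protein 43 (Eucgr.J01601; -2.00 and -0.93) and myb domain protein 61 (Eucgr.K00555; -1.76 and -1.06), of the MYB group that acts in secondary walls, fell without overlap in both trials. That lack of overlap, in the same direction in both trials, was shared by 47% of all genes. Receptor-like kinases, 67 genes, had medians of -1.45 and -1.16 and a median interaction of -0.41 (jackknife SE 0.26), with 58 below 0. In this list a lectin protein kinase (Eucgr.C00249) stood at 1.34, 6.06 and 0.747 normalized CPM in Florentine high KPY and at 6.02, 50.4 and 29.0 in low KPY, against 29.5 to 55.1 in all Meunna libraries.

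**Figure D5:**
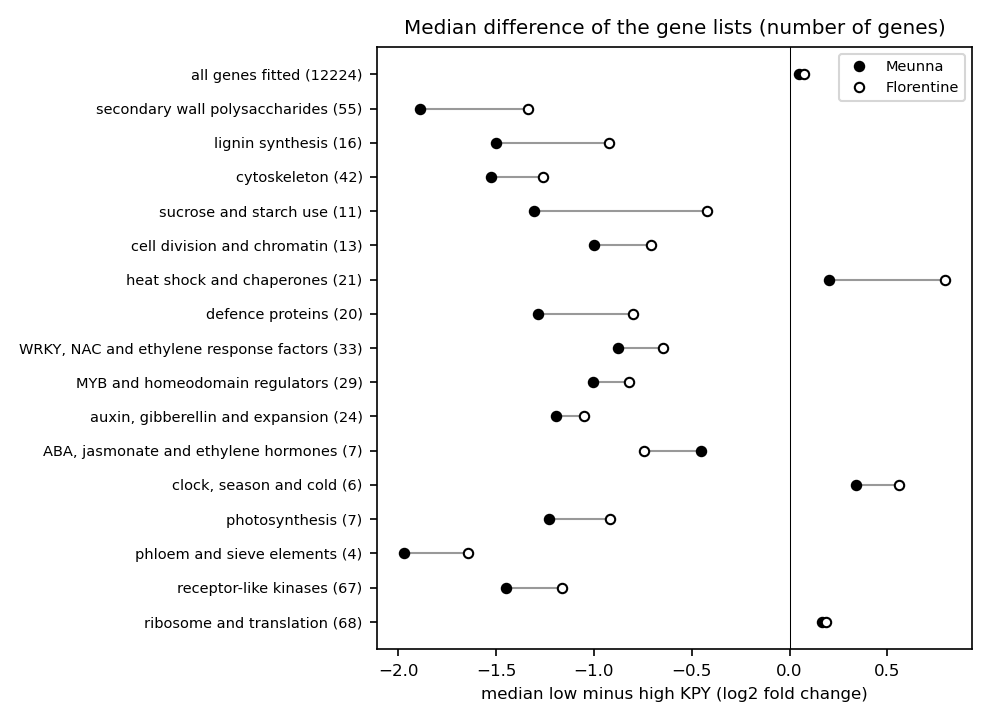
Median low minus high KPY difference (log2 fold change, horizontal axis) in Meunna (filled circles) and Florentine (open circles) of 16 lists of genes and of all genes fitted (top), with the number of genes in brackets. The list named secondary wall polysaccharides is at -1.89 and -1.34, heat shock genes at 0.20 and 0.79, and ribosomal genes at 0.17 and 0.19.

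The remaining lists had median interactions from -0.62 to -0.04. The median interaction was -0.32 over 24 genes of auxin, gibberellin and expansion, -0.12 over 13 of cell division and chromatin, -0.36 over 7 of abscisic acid, jasmonate and ethylene, -0.62 over 6 of clock, season and cold, -0.37 over 7 of photosynthesis and -0.43 over 4 of phloem and sieve elements. Without Florentine low KPY replicate 1 the last median was 0.04, and its jackknife SE was 0.54. The SAUR-like auxin-responsive genes Eucgr.C03200 (-4.10 and -1.25) and Eucgr.I01275 (-4.07 and -1.08) were under 10 normalized CPM in every library, with 1 Meunna low KPY library at 0 counts in each. CONSTANS-like 5 (Eucgr.C00194), of a B-box transcription factor family tied to day length, rose by 1.15 in Meunna and by 2.35 in Florentine. Lipoxygenase 1 (Eucgr.H04500), which starts the oxidation of fatty acids, fell in both trials (-0.31 and -0.74). The 68 genes of ribosome and translation had nearly equal medians of 0.17 and 0.19 and a median interaction of -0.04 (jackknife SE 0.09), the sign of which turned with RLE and upper-quartile factors and without Meunna low KPY replicate 2 (0.02), and 61 of them had an interval of the interaction inside 2-fold.

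The lists do not sample the genome evenly. Annotations come from the study's supplementary tables of genes called on these libraries, of which only parts were used here. The part used of the table of Meunna calls held genes that fell there, and its 1095 fitted genes had a median interaction of -0.60. The part used of the table of Florentine calls held identifiers of the letters A to D, and its 1249 fitted genes had a median of -0.26. All 2661 annotated genes had -0.28, against -0.08 over all genes. The list medians and the counts of members that fell or rose thus take in this selection. No list was tested as a set, and nothing particular to a list can be read from its median or its counts.

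A few members entered a list by the letters of their annotation alone. They were an ethylene-forming enzyme among the cytoskeleton genes (Eucgr.D01368; -1.81 and -1.50), a subunit of the nascent polypeptide-associated complex among the NAC genes (Eucgr.G03192; 0.17 and 0.21), a methyltransferase of prenylated proteins among the lignin genes (Eucgr.B02322), 2 copper chaperones, and 2 genes named for the elongation of rubber and of transcripts. Without them 39 of 41 cytoskeleton genes fell in Meunna and 40 in Florentine, 30 of 32 WRKY, NAC and ethylene response factors and 14 of 15 lignin genes had an interaction below 0, and the median interactions of the 5 lists were -0.22, -0.43, -0.60, -0.36 (heat shock) and -0.04 (ribosome).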

How the data were processed

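RNA from cambial scrapings was measured in 12 libraries, 3 bulks of each KPY class in each trial. The authors trimmed reads in CLC Genomics Workbench and filtered them by quality in Popoolation, aligned them per trial, as a pool, against the E. grandis genome by TopHat, predicted transcripts with Cufflinks, and counted reads per bulk with BEDtools. No source used here gives the genome version. The deposited values are whole-number read counts per transcript, without normalization, kept by the authors at 1 CPM in at least 3 libraries, with 0 other columns of per-sample values.

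Transcripts were joined by gene identifier. The tools were R 4.3.3, edgeR 4.0.16 (quasi-likelihood F test, 4 group means, TMM over the fitted genes with whole-table library totals), DESeq2 1.42.0 and limma 3.58.1. Intervals are Wald intervals at 95% on 10.62 degrees of freedom. Of 888 fitted genes with positions in both trials in the parts of the supplementary tables used, the 2 transcripts overlapped for 887, and by at least 90% of the longer one for 652. Jackknife standard errors leave out single libraries within the 4 groups.

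The members, lists and tests were chosen with earlier results of these data known. The genes named were the 20 with the smallest interaction p, because no gene passed, and up to 3 of each list with the smallest p. Genes named for opposite calls, or for a difference over 2-fold absent in the other trial, were chosen after seeing their values. The lists were built from words in the annotations, and leaving out members matched by letters alone was added after seeing the data. Alternatives were other tests, scalings, filters and matches between transcripts, the replicate number as a block, and leaving out each library. Depth limits the precision of low levels, since few reads stand behind a level under 1 CPM.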

Additional observations from a re-analysis of the deposited data

Results flagged for a closer look

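Of the 65 genes whose interaction passed by DESeq2, though not by edgeR's quasi-likelihood test, 15 had opposite directions in the trials without overlap of the KPY classes. Of these, 7 were among the 20 genes with the smallest quasi-likelihood p and are given here. Opposite directions without overlap were seen for 33 of all 12224 genes (0.27%). A choice by the interaction in these same libraries favours such genes. NIMA-related kinase 2 (Eucgr.H04381) had a DESeq2 interaction of -2.12 (FDR = 1.29e-06), at a far higher level in Meunna. Eucgr.I02453 had 1.72 (DESeq2 FDR = 3.75e-06) and Eucgr.C00241 had 0.72 (DESeq2 FDR = 8.83e-07). Eucgr.E00829 had 0.91 (DESeq2 FDR = 6.36e-05) and Eucgr.I00030 had 2.56 (DESeq2 FDR = 0.00172). Eucgr.F00771 had -1.03 (DESeq2 FDR = 0.000744) and Eucgr.K00087 had -1.43 (DESeq2 FDR = 0.000634). The DESeq2 calls themselves were sensitive to single libraries, from 39 without Meunna high KPY replicate 1 to 164 without Meunna low KPY replicate 1.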

How the results depend on the processing

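Interaction calls at FDR 0.05 stayed at 0 under limma-voom and every scaling, filter and match between transcripts tried with edgeR's quasi-likelihood test, and became 30 by edgeR's likelihood ratio test (2 of them list genes; with the common slope allowed for, 29 passed) and 65 by DESeq2 (2 list genes). Genes at an unadjusted p under 0.05 above 0 numbered 473 by DESeq2, 365 with RLE factors and 106 with library size only, and those below 0 numbered 928 with library size only, 871 with transcripts summed and 900 with the transcript of highest mean CPM. With library size only 1 gene passed beyond the common slope, and the median difference of all genes, 0.05 (Meunna) and 0.07 (Florentine) with TMM, was 0.22 and 0.33. Genes called in opposite directions numbered 15 with the transcript of highest mean CPM.

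Leaving out single libraries gave 0 to 1 interaction calls (Eucgr.F02998 without Florentine low KPY replicate 2), 410 to 830 genes below 0 and 136 to 275 above 0 at an unadjusted p under 0.05, 7315 to 8214 calls of the mean difference and 3 to 15 opposite calls. The Meunna differences absent in Florentine numbered 277 (without Meunna high KPY replicate 3) to 877 (without Florentine low KPY replicate 2), the Florentine ones absent in Meunna 209 (without Florentine low KPY replicate 2) to 846, and DESeq2 called 39 to 164. The interaction of phloem protein 2-B10 (Eucgr.B01904), -0.95 with all libraries, ranged from -1.64 to 0.18, the latter without Florentine low KPY replicate 1.

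The replicate numbers do not pair the bulks: deviations of same-numbered high and low KPY libraries correlated at -0.08, 0.11 and 0.25 in Meunna and -0.05, 0.41 and -0.01 in Florentine. With the number as a block within trial, 0 genes passed in the interaction and 20 were called in opposite directions. Restricting to genes with mean levels within 4-fold between the trials, moving the Meunna differences by the median, leaving out libraries under DESeq2, and leaving out list members matched by letters alone were chosen after seeing the data.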
